A study of Danio rerio with 49 samples.

Results

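The loci described here are 1760 stretches of the zebrafish genome that were transcribed in the spinal cord and that carry no Ensembl gene identifier. They were chosen from the 40085 rows of an expression table by 3 conditions. The row was one the study had assembled and numbered outside the Ensembl annotation. Its mean over all 49 libraries was at least 1 FPKM (fragments scaled by transcript length and by a factor for each library). No row with an Ensembl identifier lay on the same sequence within 5 kb on either strand. Of the 8184 unannotated rows, 2419 reached the mean, and 659 of these lay beside an Ensembl row and were left out. The mean over all libraries chose the members, so their levels are given as a description, and 178 members averaged under 1 FPKM in both uninjured groups and passed through the injured libraries. Loci high in uninjured cord can have passed through the uninjured libraries in the same way, and these were not counted.

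The RNA came from fish of the AB strain, which the study describes as juvenile or adult and of both sexes. It gives their age as a range of weeks, without stating whether at injury or at collection. Time since injury and age of the fish may therefore go together, and the 2 cannot be told apart here. The injured groups were rostral and caudal cord, each the 5 segments on that side of a complete transection, taken 1, 2, 4 or 6 weeks post injury (wpi), and the uninjured groups were the same regions of intact fish. Each of the 10 groups had 5 libraries, except caudal 6 wpi with 4, since its replicate 4 is not analysed here. Each group is stated to have come from 3 pooled fish, so libraries of a group may not be separate animals and p-values measure only the spread between libraries. The tissue is bulk cord, in which fewer cells of a type and less RNA per cell cannot be told apart.

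An unannotated row arises when reads assemble into a transcript that the reference annotation does not hold, and such loci are named here by their sequence and position. Such loci can be long noncoding RNAs, unannotated ends of known genes, transposon-derived transcripts, or genes on sequence that was never annotated. The zebrafish assembly named in the submitters' processing notes, danRer11, has beside its chromosomes a set of alternate sequences, which are other versions of stretches of those chromosomes, and unplaced scaffolds. Reads from a gene present in both versions can align to either one, and a locus that is identical in both cannot be assigned from the read alone.

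The position of the loci limited what far from a gene can mean. Only 329 of the 1760 loci lay on a sequence that held any Ensembl row, so a distance was measured for these alone. The other 1431 met the condition because their sequence carried no Ensembl row. Alternate sequences held 1367 of the loci on 579 sequences, with up to 12 loci on a sequence, and no Ensembl row of the table lay on any alternate sequence. A further 81 lay on 74 unplaced scaffolds, 64 of them on scaffolds without an Ensembl row. Chromosomes held 312, at 5003 to 254060 bp from the nearest Ensembl row with a median of 13732.5 bp. Of the 329 with a distance, 205 lay over 10 kb and 17 over 100 kb away. The label of loci far from genes therefore held by distance for 329, and the 1367 are called alternate loci below.

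The 2 loci just inside the level limit averaged 1.00005 and 1.00153 FPKM, and the 2 rows just outside it 0.9997 and 0.99811 FPKM. The 2 loci just inside the distance limit lay 5003 bp and 5012 bp from an Ensembl row, and the 2 rows just outside it 4936 bp and 4895 bp.

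The 3 kinds of locus differed in structure. Where the summed transcript length equals the genomic span, the locus is 1 unspliced block. This held for 1.8% of alternate loci and 24.7% of chromosome loci, beside 13.6% of scaffold loci and 3.4% of Ensembl rows with a mean of at least 1 FPKM. The median span was 20797 bp for alternate loci and 5685.5 bp for chromosome loci, against 16487.5 bp for those Ensembl rows. Median transcript length was 3110 bp for alternate loci and 2119 bp for chromosome loci, against 2248 bp for Ensembl rows. In spliced structure and span, alternate loci were thus nearer to Ensembl rows than chromosome loci were.

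Most of the loci were weakly expressed, with a median mean of 2.14 FPKM for alternate, 1.68 for chromosome and 1.79 for scaffold loci, against 4.71 for the 13892 Ensembl rows with a mean of at least 1. A mean of at least 10 FPKM was reached by 170 loci, of which 153 were alternate. All 49 libraries had a value above 0 for 1670 loci, and 1157 averaged at least 1 FPKM in every group. The libraries held 4359571 to 26940599 fragments, recovered as whole numbers from FPKM and length, and the loci took 1.634% to 3.736% of them. This share was 2.21% to 3.736% in replicates 1 to 3 and 1.634% to 2.652% in replicates 4 and 5, which were also the deeper libraries at a median of 22556921 fragments against 14077227 in replicates 1 to 3.

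Changes are given here as differences of mean log2(FPKM + 0.1), injured minus uninjured, with their SE and a p-value from limma adjusted over all rows tested. The highest locus lay on CHR_ALT_CTG7_2_2, from position 22613896 to 22630833 on the plus strand, with a mean of 369.6 FPKM. At 2 wpi it had 390, 507, 222, 754 and 756 FPKM in rostral libraries, against 60.9, 77.1, 185, 202 and 269 FPKM in uninjured rostral libraries. These groups overlapped slightly, and the locus was higher by 1.81 ± 0.46 on the log2 scale (SE, adjusted p = 0.0215, limma). The Ensembl row at those positions of chromosome 7 is cldn7a, a claudin of epithelial tight junctions, which averaged 0.041 FPKM and overlapped only 0.628 of the longer span.

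The second lay on chromosome 11, from 39004534 to 39008354 on the plus strand, with a mean of 212 FPKM. It lay 5409 bp from CLDN19, which encodes another claudin, known in mammals from Schwann cell and kidney tight junctions. Caudal libraries had 133, 147, 105, 92.5 and 99.4 FPKM at 1 wpi, against 284, 279, 373, 288 and 193 FPKM when uninjured. No library of 1 wpi reached an uninjured one, and the change was -1.29 ± 0.22 (SE, log2, adjusted p = 0.00371). Rostral libraries had 140, 148, 159, 130 and 122 FPKM at 1 wpi, against 256, 383, 364, 325 and 227 FPKM when uninjured, a change of -1.13 ± 0.22 (adjusted p = 0.00719). Caudal libraries at 6 wpi had 263, 278, 201 and 233 FPKM, all above those at 1 wpi (1.09 ± 0.22, adjusted p = 0.0215).

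The third, with a mean of 185 FPKM, lay from 31034953 to 31039535 on CHR_ALT_CTG22_1_24. Its positions overlap by 0.089 those of rpl32, a protein of the large ribosomal subunit, whose Ensembl row had a mean that rounded to 0. Another alternate locus, on CHR_ALT_CTG22_2_8, spanned rpl32 with a reciprocal overlap of 0.977 and averaged 7.42 FPKM. The locus on CHR_ALT_CTG22_1_24 was higher in rostral cord at 2 wpi (1.00 ± 0.30, adjusted p = 0.0408) and in caudal cord at 1 wpi (1.02 ± 0.28, adjusted p = 0.0311). The other 5 loci above 100 FPKM were all alternate. They averaged 170.5 FPKM on CHR_ALT_CTG17_1_16, 137.4 FPKM on CHR_ALT_CTG10_1_33 and 119.3 FPKM on CHR_ALT_CTG14_2_6. Those on CHR_ALT_CTG16_2_1 and CHR_ALT_CTG6_4_1 averaged 119.1 FPKM and 101.7 FPKM. The reciprocal overlap was 0.384 with UBL3 for CHR_ALT_CTG10_1_33 and 0.976 with si:ch73-335m24.2 for CHR_ALT_CTG14_2_6. It was 0.398 with zgc:92606 for CHR_ALT_CTG16_2_1 and 0.098 with ptmaa, a prothymosin alpha gene, for CHR_ALT_CTG6_4_1. None of these 5 passed the test in any comparison of injured with uninjured cord.

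Alternate sequences carry the position numbers of the chromosome they stand for, so each alternate locus was set beside the Ensembl rows at the same numbers. The match was not checked by sequence, since no genome was used here. Of the 1367, 95.8% overlapped the span of an Ensembl row and 89.5% overlapped one on the same strand. Ensembl spans of both strands together cover 58.5% of the chromosomes in base pairs. A long locus overlaps a span more often than a single base does, so this is not the share that placement alone would give. That share was not computed. For 397 loci the overlap was at least 80% of the longer span on the same strand, and these pairs, with 393 different Ensembl rows, are described next.

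The levels of the 2 rows of a pair were often far apart. The alternate locus had the higher mean in 292 of 397 pairs and at least 4 times the Ensembl row in 176. The Ensembl row had at least 4 times the alternate locus in 22, averaged under 0.1 FPKM in 127, and had a mean that rounded to 0 in 38. Whether each library was at 0 in these 38 was not checked. The choice of loci set a minimum of 1 FPKM on the alternate locus and none on the Ensembl row, so these counts are a description only.

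The genes with a near-empty Ensembl row included ones that most cells use. PSMA5, a subunit of the 20S proteasome, averaged 0.007 FPKM in its Ensembl row, beside 38.2 FPKM for the locus on CHR_ALT_CTG11_1_25 (36342986 to 36351416, minus strand). COPS7A, of the COP9 signalosome, averaged 0.132 FPKM beside 42.4 FPKM for its alternate locus. NDUFB5, of mitochondrial complex I, averaged 0.005 FPKM beside 29.8 FPKM. A row with the symbol GLUL, for glutamine synthetase, an enzyme of astroglia, averaged 0.068 FPKM beside 22.7 FPKM. The symbol glula was not found among the rows, so which zebrafish gene this row stands for is not settled. CD63, a lysosomal tetraspanin, averaged 0.146 FPKM beside 22.7 FPKM. Rows whose mean rounded to 0 included GTF2H3 of transcription factor TFIIH beside a locus at 7.68 FPKM. Others were the tankyrase TNKS beside one at 7.86 FPKM, and ACTL6A of chromatin remodelling complexes beside one at 7.13 FPKM. In the other direction txnb, a thioredoxin, averaged 272.8 FPKM beside 1.07 FPKM for its alternate locus.

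**Figure D1:**
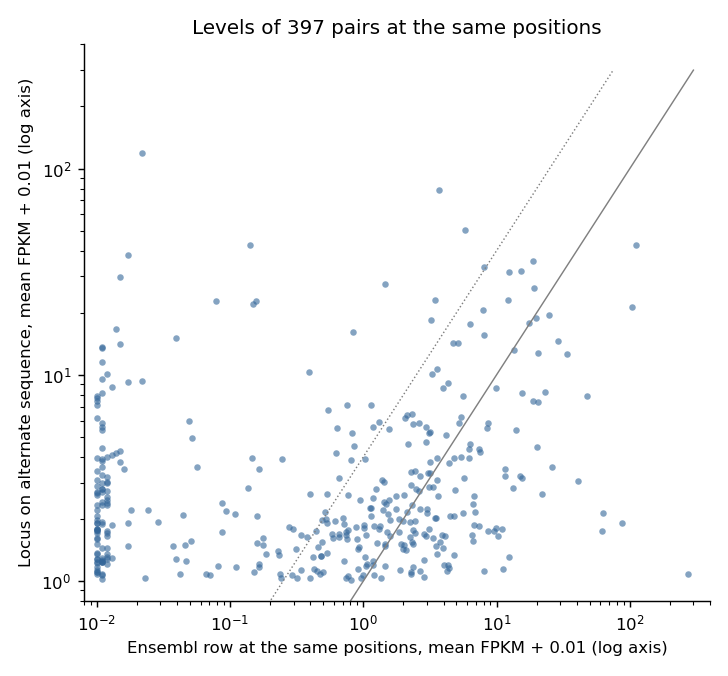
Mean FPKM of 397 alternate loci (vertical axis) against the Ensembl row at the same position numbers (horizontal axis), both with 0.01 added, on log axes. The solid line marks equal levels and the dotted line 4 times the Ensembl row. The column of points at the left holds the 38 pairs whose Ensembl row had a mean that rounded to 0.

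In 189 pairs both rows averaged at least 1 FPKM, and here the split between them could be followed across libraries. Deviations from group means of the 2 rows had a median correlation of -0.18 over 49 libraries, below 0 in 114 pairs, under -0.5 in 45 and over 0.5 in 28. Both values come from the same library and share its depth. The median SD within groups on the log2 scale was 0.568 for the alternate locus, 0.532 for the Ensembl row and 0.343 for their summed FPKM. The sum had the lowest of the 3 SDs in 140 of 189 pairs. A sum of unrelated values also varies relatively less than its parts, so the variance of summed FPKM was divided by the summed variances, which gives 1 when the parts are unrelated. This ratio had a median of 0.91, was under 1 in 116 pairs, under 0.5 in 41 and over 1.5 in 14.

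One pair with an even sum was that of VAPB, a membrane protein that tethers the endoplasmic reticulum, with the locus on CHR_ALT_CTG6_1_48 (49583168 to 49636115, plus strand). The alternate locus ranged over libraries from 6.77 FPKM to 46 with a median of 16.3, and VAPB from 6.12 FPKM to 28.8 with a median of 18.5. Their sum ranged from 24.7 FPKM to 54.7, and the SDs were 0.492 for the locus, 0.505 for VAPB and 0.186 for the sum, with a correlation of -0.70. The highest value of the locus and of the sum came from uninjured caudal replicate 2, with 46 FPKM of 54.7.

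STAG2, of the cohesin complex, and the locus on CHR_ALT_CTG14_1_21 (28486132 to 28526766) gave SDs of 0.97 for the locus, 0.592 for STAG2 and 0.195 for the sum. The locus made up 1.3% to 78.2% of the sum, and the sum stayed between 3.87 FPKM and 7.96. SMAD3, a signal transducer of transforming growth factor beta, and the locus on CHR_ALT_CTG7_1_28 (34109784 to 34156798) gave 1.16 for the locus, 1.35 for SMAD3 and 0.203 for the sum. Here the alternate locus held between 0.5% and 99% of the sum, so that nearly all fragments lay on one row in some libraries and on the other row elsewhere. SHD, a signalling adaptor, and the locus on CHR_ALT_CTG22_1_7 (21399579 to 21465614) gave 1.62 for the locus, 0.629 for SHD and 0.201 for the sum, with a correlation of -0.81.

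**Figure D2:**
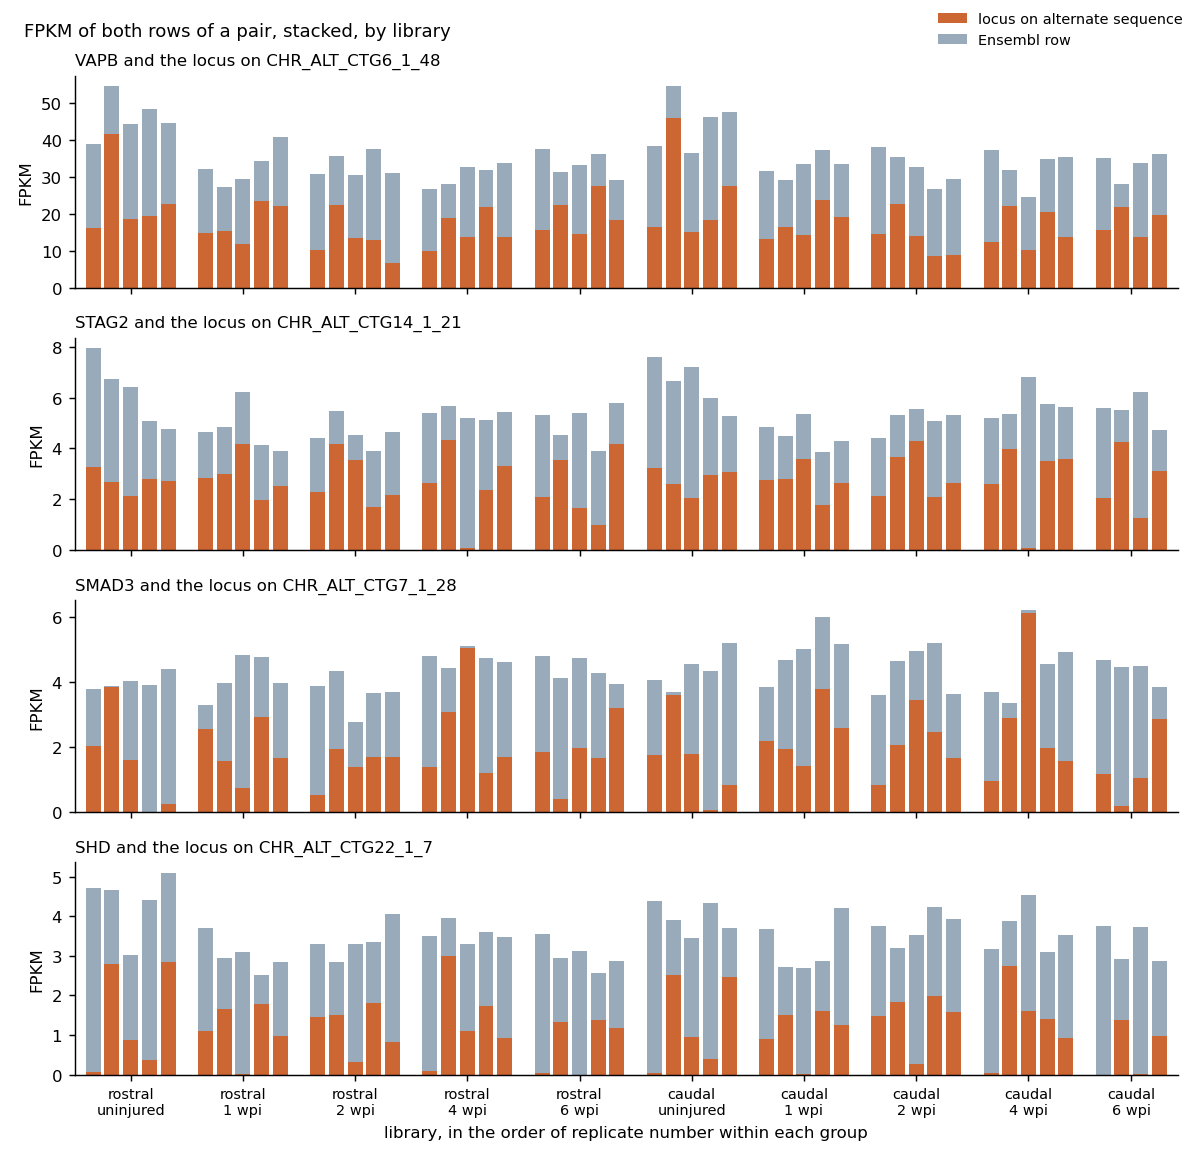
FPKM of 4 alternate loci (orange) and of the Ensembl rows at the same position numbers (grey), stacked from 0, in each of 49 libraries by group. The orange share ran from 0.5% to 99% in the SMAD3 pair, while the height of the whole bars varied less than either part.

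Not all pairs behaved in this way. For SCN4B, a sodium channel subunit, and its alternate locus the deviations had a correlation of 0.958, so that both rows were high or low in the same libraries. For grinab and its alternate locus the correlation was 0.85.

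The loci also had a wider spread between libraries of a group than Ensembl rows. The median SD within groups was 0.545 for alternate loci, 0.542 for chromosome loci and 0.494 for scaffold loci, against 0.386 for Ensembl rows with a mean of at least 1 FPKM. For the 659 unannotated loci beside Ensembl rows it was 0.473, so a wider spread was not limited to loci far from genes. An SD over 1 was found for 12.1% of all 1760 loci, 5.61% of the loci beside Ensembl rows and 4.42% of Ensembl rows. At means of 10 FPKM and above, where counting error is small, the median was 0.571 for 153 alternate loci, 0.35 for 13 chromosome loci and 0.368 for 4130 Ensembl rows. At means of 1 to 2 FPKM it was 0.551 for alternate loci, 0.55 for chromosome loci and 0.45 for Ensembl rows.

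Rostral and caudal libraries of the same time and number deviated together. Over the 24 such pairs of libraries, the median correlation of deviations was 0.71 for alternate loci, 0.653 for chromosome loci and 0.656 for Ensembl rows. The labels do not say that these libraries come from the same fish. Agreement between the 2 regions is therefore not independent support for a change.

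For 12 loci the libraries fell into a high and a low set, with a gap of at least 4-fold on the log2(FPKM + 0.1) scale and at least 5 libraries on each side. All 12 were alternate loci, 0.88% of 1367, against 94 or 0.68% of Ensembl rows. The shares depended on level, with 0.47% of alternate loci and 2.15% of Ensembl rows at 1 to 2 FPKM, and 1.96% and 0.12% at 10 FPKM or more. In all 12, each of the 24 rostral and caudal pairs of libraries lay on the same side of the gap. Of the 94 Ensembl rows this held for 13. Of the 659 unannotated loci beside Ensembl rows, 1 had such a gap (0.15%), with all 24 pairs on the same side. The 12 were chosen for the gap, which is a description and was not tested.

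Of the 12, 6 lay on 4 neighbouring alternate sequences of chromosome 5, and in these 6 the same 23 libraries were high. The sequences were CHR_ALT_CTG5_1_11 to CHR_ALT_CTG5_1_14, between positions 22130606 and 24155707. The locus at 24059668 to 24061851 on CHR_ALT_CTG5_1_14, where gabarapa lies, had 10.2 to 143.1 FPKM (median 33.7) in the 23 high libraries and 0.342 to 1.43 FPKM in the other 26. The locus at 22960728 to 22963964 on CHR_ALT_CTG5_1_13 had 12.4 to 60 FPKM in the high set and 0.221 to 1.38 FPKM in the low set. The high libraries were replicate 2 of the uninjured fish, replicates 1, 2, 4 and 5 at 1 wpi, 2 and 4 at 2 wpi, 2, 4 and 5 at 4 wpi, and 4 and 5 at 6 wpi, in rostral and caudal cord wherever both were analysed.

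Ranked by level, 10 of the 16311 rows with a mean of at least 1 FPKM had exactly these 23 libraries on top, and no row had them at the bottom. The set was taken from the 6 loci above, which are among the 10 and match by construction. All 10 were alternate loci on those 4 sequences of chromosome 5, which hold 16 of the 1760 loci, 13 of them with an SD over 1. The Ensembl rows paired with 3 of the 6 encode gabarapa, of autophagosome formation, MSN or moesin, a linker of actin to the membrane, and mrps31, of the mitochondrial ribosome. For mrps31 the sum had an SD of 0.291, against 2.48 for the alternate locus and 0.377 for the Ensembl row. For MSN the SDs were 0.364 for the sum, 2.39 for the locus and 0.422 for MSN, and for gabarapa 0.763 for the sum, 2.95 for the locus and 0.833 for gabarapa. The variance of the sum was 0.595 of the summed variances of both rows for mrps31, 0.869 for MSN and 1.00 for gabarapa.

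**Figure D3:**
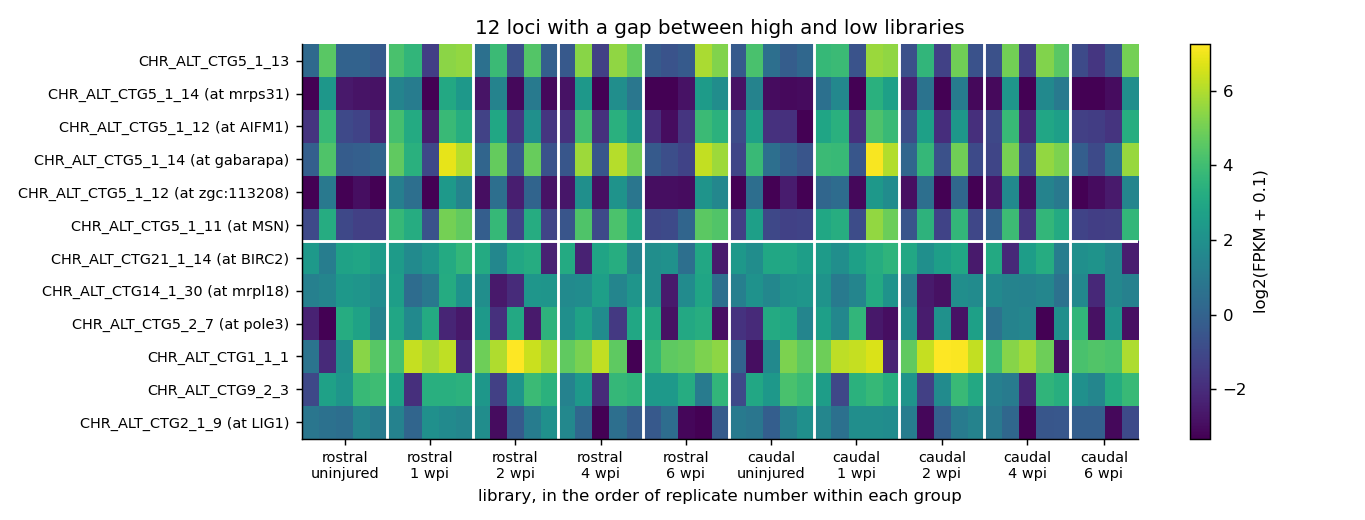
Level of the 12 loci with a gap, as log2(FPKM + 0.1), in each of 49 libraries (columns, by group and replicate number). The upper 6 rows are the loci on alternate sequences of chromosome 5, in which the same 23 columns are bright, and each of the 24 rostral and caudal columns of equal group and number match in all 12 rows.

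The other 6 loci each had their own set of libraries. The locus on CHR_ALT_CTG1_1_1, at 8581937 to 8583725 on the minus strand, had 0.94 to 151.7 FPKM with a median of 35.3 in 43 libraries, and 0 to 0.14 FPKM in 6. The low libraries were replicate 2 of the uninjured, replicate 5 at 1 wpi and replicate 5 at 4 wpi, in both regions. It was the only one of the 12 past the test in a comparison with uninjured cord, at 2 wpi in rostral cord (3.97 ± 1.14, adjusted p = 0.037), where 1 of 5 uninjured libraries was in the low set. For BIRC2, an inhibitor of apoptosis, and the locus on CHR_ALT_CTG21_1_14 the low set held 6 libraries at 0.071 to 0.13 FPKM, and the SD was 1.8 for the locus, 0.628 for BIRC2 and 0.317 for the sum. For pole3, a DNA polymerase epsilon subunit, and the locus on CHR_ALT_CTG5_2_7 the sum did not vary least, with 0.757 against 0.496 for pole3.

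Loci on the same alternate sequence tended to deviate together. The median correlation of deviations was 0.262 over 1702 pairs of loci on the same alternate sequence, with 9.99% over 0.8, and 0.021 over 931959 pairs on different ones, with 0.17% over 0.8. For chromosome loci it was 0.613 for 21 pairs within 5 kb of each other and 0.053 for 2116 pairs on the same chromosome. Loci of 1 sequence are therefore not independent members in the counts below. In position numbers, 51 alternate loci overlapped a locus of another alternate sequence.

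Injured cord was then compared with uninjured cord in each region and week, on log2(FPKM + 0.1) with limma over all rows with a mean of at least 0.1 FPKM in the libraries compared, which understates the change of low rows. A locus was called when the p-value, adjusted over all rows by Benjamini-Hochberg, was under 0.05. The comparisons of a region share their uninjured libraries. The neuronal genes elavl3 and elavl4, 2 found of 6 listed, mark the tissue and summed to 104.59 to 234.14 FPKM over all libraries. Radial glia genes, 2 found of 5 listed, had medians of 1001.76 FPKM in rostral cord at 1 wpi and 1102.56 FPKM uninjured. In caudal cord these medians were 1175.06 FPKM and 1100.57 FPKM. The microglia and macrophage list and the myelin list moved with injury. The summed FPKM of the 5 microglia and macrophage genes found of 6 listed was 5579 to 22847 at 1 wpi and 2604 to 12068 at 6 wpi, against 380.12 to 2998.8 in uninjured cord. That of the 4 myelin genes found of 5 listed was 12412 to 23150 in caudal cord at 1 wpi, against 36767 to 130203 in uninjured caudal cord. None of these genes averaged under 0.1 FPKM. Skeletal muscle genes, 4 found of 6 listed, summed to 4.59 to 681.78 FPKM over libraries. The highest value was in uninjured caudal cord, and rostral cord at 1 wpi reached 545.81 FPKM. Skin genes, 4 found of 4 listed with krt5 averaging under 0.1 FPKM, summed to 1.94 to 703.37 FPKM. Their median over all libraries was 5.48 FPKM, and the highest value was in caudal cord at 2 wpi. The part of these marker genes in the changes of the loci was not tested.

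In rostral cord, 113 loci were higher and 85 lower at 1 wpi, which is 11.2% of the 1760 beside 9.82% of all rows tested, of which 6.32% were higher and 3.50% lower. At 2 wpi 180 were higher and 120 lower, 17.0% beside 15.1% of all rows (9.00% higher and 6.14% lower). At 4 wpi 92 were higher and 20 lower, 6.36% beside 6.42% (5.00% higher and 1.43% lower), and at 6 wpi 67 were higher and 20 lower, 4.94% beside 4.26% (3.44% higher and 0.823% lower). With the replicate number as a block, for which all pairs of deviations at 4 and 6 wpi were correlated, 188 were called at 4 wpi, 10.7% beside 9.58% of all rows, and 170 at 6 wpi, 9.66% beside 7.13%.

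In caudal cord, 137 loci were higher and 117 lower at 1 wpi, 14.4% beside 13.2% of all rows (7.62% higher and 5.53% lower). At 2 wpi 96 were higher and 35 lower, 7.44% beside 6.36% (4.47% higher and 1.89% lower). At 4 wpi 23 were higher and 4 lower, 1.53% beside 1.38% (1.15% higher and 0.226% lower), and at 6 wpi 7 were higher and 2 lower, 0.511% beside 0.461% (0.345% higher and 0.116% lower). In both regions the share of loci called was thus close to that of all rows at each week, but all rows include ones down to 0.1 FPKM. Ensembl rows with a mean of at least 1 FPKM had a higher share called in each of the 8 comparisons. It was 20.6% beside 17.0% of the loci in rostral cord at 2 wpi. In caudal cord at 1 wpi it was 18.2% beside 14.4%. This difference was not tested. With 1 library left out, the counts of loci ranged from 7 to 57 at 4 wpi and from 2 to 21 at 6 wpi, and were highest without uninjured caudal replicate 5. The share of all rows was not counted in these fits.

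Over the 8 comparisons, 453 of 1760 loci were called at least once, 25.7% beside 21.2% of all rows tested, 253 of them only as higher, 198 only as lower and 2 in both directions. All rows tested include weaker rows than the loci. The 3 loci called higher in all 8 lay at the positions of TNFAIP6, rgl3a and MMP14. How many of all rows were called higher in all 8 was not counted, so this number is a description. At no week was a locus called in opposite directions in the 2 regions. Of the 178 loci under 1 FPKM in both uninjured groups, 108 were called higher at least once, which the choice by overall mean makes likely. The loci at the positions of TNFAIP6 and rgl3a are among the 178, and the changes of named loci among them are given as a description, without adjusted p. Where their calls are counted below, also with 1 library left out, the choice by overall mean makes such calls likely. These calls are therefore a description as well and no support for a change.

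Early decreases took a larger share of chromosome and scaffold loci than of alternate loci, a difference that was not tested. At 1 wpi in caudal cord, 47 of 312 chromosome loci were lower, 15.1%, and 17 were higher. Of alternate loci 4.24% were lower, and of all rows tested 5.53%. The median change was -0.34 on the log2 scale for chromosome loci and 0.07 for alternate loci, against -0.02 for all rows. In rostral cord at 2 wpi 14.1% of chromosome loci were lower, beside 6.14% of all rows. The share was as high among unannotated loci beside Ensembl rows, of which 15.8% were lower at 1 wpi in caudal cord, so it was not limited to loci far from genes.

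**Figure D4:**
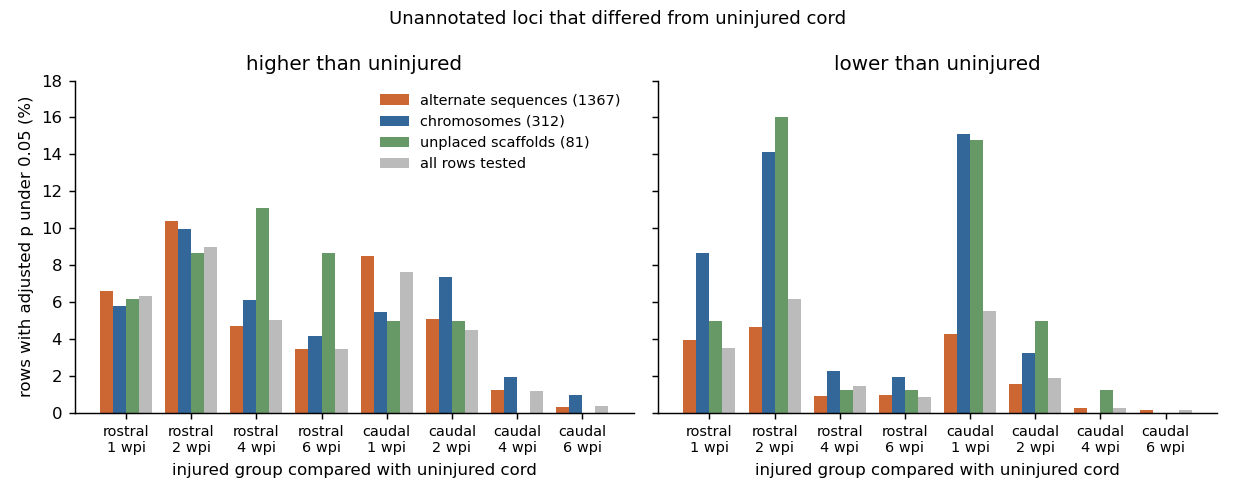
Percent of loci with an adjusted p under 0.05 that were higher (left) or lower (right) in injured than in uninjured cord, for alternate, chromosome and scaffold loci and for all rows tested. The bars of chromosome loci for lower reach 14.1% in rostral cord at 2 wpi and 15.1% in caudal cord at 1 wpi, beside 6.14% and 5.53% of all rows.

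At the position of TNFAIP6, the locus on CHR_ALT_CTG9_2_4, from 22758286 to 22776834 on the plus strand, had 29.4, 19.6, 20.2, 12.2 and 17.9 FPKM in rostral libraries at 2 wpi, against 0.717, 0.579, 0.795, 0.55 and 0.561 FPKM in uninjured rostral libraries. The groups lay far apart, with a change of 4.71 ± 0.22 (log2, SE). In caudal cord it had 12.7, 11.8, 40, 30 and 18.2 FPKM at 1 wpi and 3.35, 3.86, 2.23 and 4.28 FPKM at 6 wpi, against 0.61, 0.33, 0.846, 0.303 and 0.901 FPKM uninjured. The caudal change was 4.96 ± 0.39 at 1 wpi and 2.40 ± 0.34 at 6 wpi, and the call at 6 wpi was lost without caudal 6 wpi replicate 1 or 2. The Ensembl row at these positions, with an overlap of 0.679, is TNFAIP6, a secreted hyaluronan-binding protein induced in inflammation. TNFAIP6 averaged 1.6 FPKM and was higher as well, by 3.40 ± 0.39 in rostral cord at 2 wpi (adjusted p = 0.000267).

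Also higher in all 8 comparisons was the locus on CHR_ALT_CTG2_1_3 (38163690 to 38185099, plus strand), paired with MMP14, a membrane-bound matrix metalloproteinase. It had 5.57, 7.58, 8.29, 7.71 and 6.18 FPKM in rostral libraries at 1 wpi, against 3.14, 1.75, 2.1, 2.29 and 1.91 FPKM uninjured (1.63 ± 0.20, adjusted p = 0.000533). MMP14 in its own Ensembl row had 3.21, 3.65, 3.77, 2.28 and 2.87 FPKM, against 0.928, 0.827, 1.07, 0.757 and 0.796 FPKM uninjured (1.73 ± 0.20, adjusted p = 0.000382). In caudal cord at 4 wpi the change was 1.45 ± 0.28 for the locus (adjusted p = 0.0265) and 0.45 ± 0.28 for MMP14 (adjusted p = 0.538), a difference that was not tested. At 6 wpi in caudal cord the change of the alternate locus was 1.14 ± 0.21 (adjusted p = 0.0465), and it was lost when any of the 9 libraries was left out.

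The third locus higher in all 8, on CHR_ALT_CTG6_1_4 (8209821 to 8259998, minus strand), had 1.64, 2.1, 1.87, 1.7 and 1.96 FPKM in rostral cord at 1 wpi, against 0.0418, 0.275, 0.101, 0.334 and 0.208 FPKM uninjured. The groups lay apart, with a change of 2.85 ± 0.32. It overlaps rgl3a, a guanine nucleotide exchange factor, by 0.685, and rgl3a was higher by 1.96 ± 0.38 (adjusted p = 0.00742). Higher in 7 of 8 was the locus on CHR_ALT_CTG20_1_15 (26526921 to 26540220, minus strand), with 2.15, 2.87, 6.67, 8.94 and 4.31 FPKM in caudal cord at 1 wpi, against 0.464, 0.299, 0.725, 0.167 and 0.435 FPKM uninjured (3.21 ± 0.41). It too is among the 178. Its nearest Ensembl row in position numbers is STX11, a syntaxin of immune cells in mammals, with an overlap of 0.138.

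A chromosome 12 locus, also among the 178, was higher in 7 of 8 comparisons. It is 1 unspliced block of 6575 bp from 1577746 to 1584320 on the minus strand, 7826 bp from SLC39A11, a zinc transporter. It had 2.47, 2.26, 2.93, 2.54 and 1.51 FPKM in rostral libraries at 2 wpi, against 0.303, 0.159, 0.278, 0.204 and 0.378 FPKM uninjured (2.75 ± 0.25). In caudal cord at 2 wpi it had 1.04, 1.52, 0.861, 1.11 and 0.845 FPKM, against 0.419, 0.217, 0.445, 0.281 and 0.147 FPKM uninjured (1.58 ± 0.29). The difference between the regions was not tested. With 1 library left out, the caudal call at 6 wpi was lost in 5 of 9 fits for this locus and in 4 of 9 for the locus at rgl3a. The caudal call at 4 wpi was lost in 6 of 10 fits for the locus at MMP14 (adjusted p up to 0.0726) and in 7 of 10 for that on CHR_ALT_CTG20_1_15.

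Among the 8 comparisons a chromosome 16 locus of the 178 was called at 1 wpi in both regions and at no other week. It lies from 9986777 to 9996476 on the minus strand, 6375 bp from ID4, which encodes an inhibitor of basic helix-loop-helix factors expressed in neural precursors. Caudal libraries had 6.9, 1.21, 3.52, 10.8 and 13.2 FPKM at 1 wpi, against 0.0154, 0.0493, 0, 0.108 and 0.0177 FPKM uninjured, the last from 0 to 16 fragments per library. The change was 5.35 ± 0.55 in caudal cord and 4.72 ± 0.48 in rostral cord, values that depend on the pseudocount of 0.1.

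A chromosome 22 locus was lower at 1 wpi, from 8106211 to 8111039 on the plus strand, 31999 bp from the nearest Ensembl row. Caudal libraries had 1.72, 0.294, 0.556, 0 and 2.03 FPKM at 1 wpi, against 3.46, 4.12, 6.83, 5.77 and 14.8 FPKM uninjured (-3.29 ± 0.73, adjusted p = 0.0129). At 6 wpi they had 20.3, 9.73, 19.6 and 26.3 FPKM, above all libraries of 1 wpi (4.83 ± 0.78, adjusted p = 0.00899). Rostral libraries at 1 wpi had 1.69, 0.513, 1.14, 0 and 2.46 FPKM, against 4.5, 5.75, 6.58, 7.81 and 14.4 FPKM uninjured (-3.17 ± 0.73, adjusted p = 0.018).

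**Figure D5:**
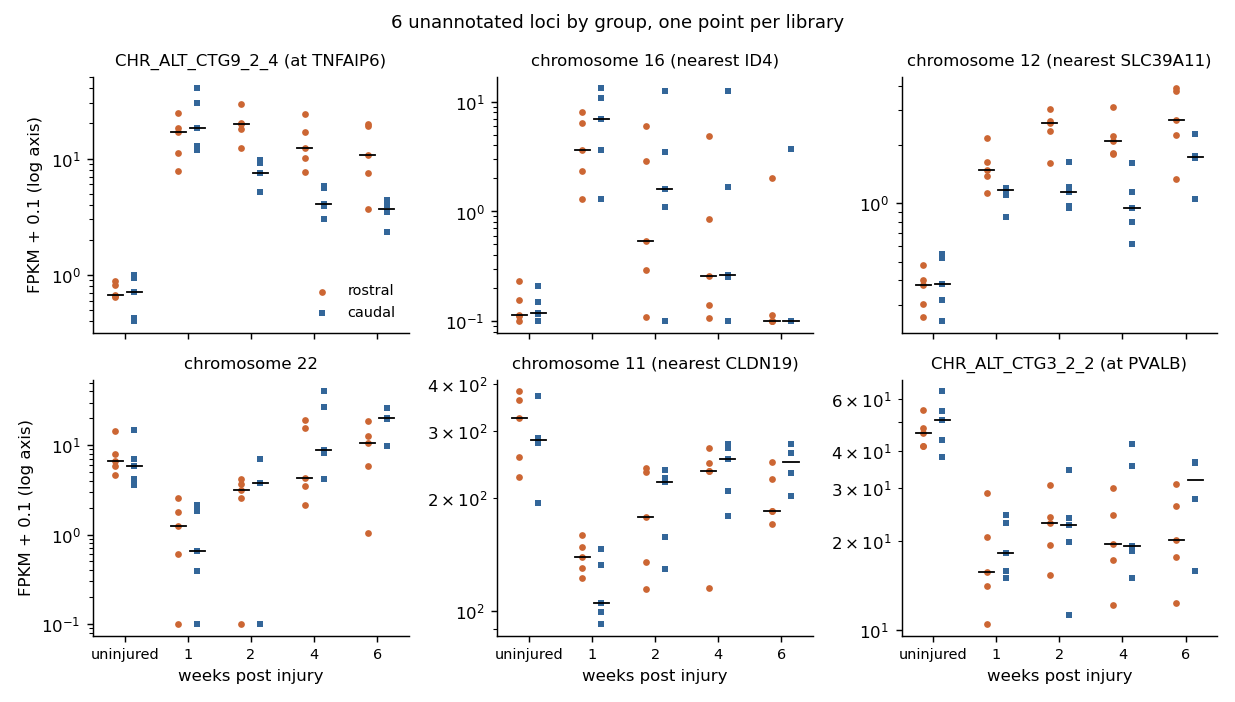
FPKM + 0.1 on a log axis of 6 unannotated loci in uninjured cord and in the 4 injured weeks, one point per library, rostral (orange circles) and caudal (blue squares), with black bars at group medians. At the locus on CHR_ALT_CTG9_2_4, where TNFAIP6 lies, all injured libraries were at 2.23 FPKM or more and all uninjured ones at 0.901 or less, and the chromosome 11 locus had its lowest medians at 1 week in both regions.

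Other increases came from low or near-empty uninjured levels, and the next 4 loci are among the 178. At 2 wpi in rostral cord the locus on CHR_ALT_CTG22_1_5 (19397780 to 19407834) had 10.3, 4.1, 3.34, 2.31 and 1.81 FPKM, against 0, 0, 0.089, 0 and 0.173 FPKM uninjured (4.73 ± 0.46). On chromosome 4, the locus at 40201188 to 40203433 had 0.956, 2.31, 1.74, 5.51 and 0.744 FPKM in caudal cord at 2 wpi, against 0.0534, 0, 0, 0.0235 and 0 FPKM uninjured (4.03 ± 0.46). It was called higher in 5 of the 8 comparisons. Also on chromosome 4, the locus at 52128689 to 52131177 had 3.45, 1.19, 3.52 and 1.77 FPKM in caudal cord at 6 wpi, against 0, 0.115, 0, 0 and 0.865 FPKM uninjured (3.69 ± 0.67). This call was lost in 8 of 9 fits with 1 library left out. At 1 wpi in rostral cord the locus on CHR_ALT_CTG14_1_35 (38786144 to 38792185) had 0.234, 0.978, 5.97, 37.1 and 2.37 FPKM, against 0, 0.0427, 0.0603, 0.0442 and 0.0783 FPKM uninjured (4.34 ± 0.97). Uninjured libraries of these comparisons held 0 to 12 fragments, so these changes depend on the pseudocount. At 4 wpi in rostral cord the locus on CHR_ALT_CTG6_1_39 (39350792 to 39384620) had 6.66, 14.4, 8.02, 5.02 and 7.54 FPKM, against 0.83, 0.0235, 1.58, 1.34 and 1.62 FPKM uninjured (3.20 ± 0.64, adjusted p = 0.0115).

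Among the loci that were lower, one on CHR_ALT_CTG3_2_2 (24292658 to 24429815, plus strand) was called in 6 of the 8 comparisons. It had 12, 19.4, 17.2, 24.3 and 30 FPKM in rostral libraries at 4 wpi, against 45.9, 41.6, 54.9, 41.6 and 47.6 FPKM uninjured (-1.22 ± 0.22, adjusted p = 0.007). The Ensembl row at its positions is PVALB, a parvalbumin, one of a family of calcium-binding proteins of muscle and neurons, with an overlap of 0.963. PVALB had 1.6, 1.68, 3.16, 1.57 and 1.13 FPKM at 4 wpi, against 0.271, 0.465, 0.274, 0.321 and 0.107 FPKM uninjured, a change of 2.31 ± 0.33 in the other direction (adjusted p = 0.00158). This was the only pair called in opposite directions in any of the 11 comparisons. The summed FPKM followed the alternate locus, which held 80.1% to 100% of it.

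Lower in 7 of 8 comparisons was the locus on CHR_ALT_CTG7_1_21 (27057352 to 27253403, plus strand), with 2.26, 2.13, 1.68, 3.6 and 2.74 FPKM in rostral cord at 4 wpi, against 4.49, 7.81, 5.51, 5.68 and 5.38 FPKM uninjured (-1.21 ± 0.22, adjusted p = 0.00696). Its pair PLEKHA7, a protein of epithelial adherens junctions, changed by -1.20 ± 0.27 (adjusted p = 0.0205). The locus on CHR_ALT_CTG20_1_4 (9831184 to 9845434, plus strand) had 1.74, 1.53, 2.41, 3.21 and 6.06 FPKM in caudal cord at 1 wpi, against 7.49, 22, 13.8, 12.3 and 43.2 FPKM uninjured (-2.60 ± 0.46, adjusted p = 0.00445). It overlaps stxbp6l, a syntaxin-binding protein gene, by 0.706, and stxbp6l changed by -2.60 ± 0.35 there (adjusted p = 0.000854).

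For PPP3CC, a calcineurin subunit, the locus on CHR_ALT_CTG10_2_2 (20185522 to 20242955) had 0.181, 0.172, 0.166, 1.25 and 0.137 FPKM in rostral cord at 2 wpi, against 1.79, 2.69, 1.38, 1.34 and 1.59 FPKM uninjured (-2.30 ± 0.45, adjusted p = 0.00669). Within the pair it held between 1.8% and 63.2% of the sum over all libraries, with SDs of 1.21 for the locus, 0.453 for PPP3CC and 0.392 for the sum.

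The other loci named for a decrease were called in 1 to 5 of the 8 comparisons, with changes of -2.79 to -1.26. At 1 wpi in rostral cord this was the locus on CHR_ALT_CTG18_1_48 (-2.49 ± 0.55), and at 2 wpi one on chromosome 9 (-1.60 ± 0.30), 85880 bp from IFIH1, a cytosolic sensor of viral RNA. At 6 wpi in rostral cord they were the locus at 44181112 to 44188351 on CHR_ALT_CTG2_1_9 (-2.26 ± 0.41) and one at 29174 to 31256 on chromosome 2 (-1.61 ± 0.33), whose call was lost without rostral 6 wpi replicate 4 (adjusted p = 0.0516). In caudal cord they were the loci on CHR_ALT_CTG7_1_34 (-2.03 ± 0.30) and CHR_ALT_CTG7_1_19 (-1.42 ± 0.28) at 2 wpi, a scaffold locus (-1.30 ± 0.26) at 4 wpi, and the loci on CHR_ALT_CTG4_2_2 (-2.79 ± 0.42) and CHR_ALT_CTG23_1_27 (-1.26 ± 0.19) at 6 wpi. The locus on CHR_ALT_CTG23_1_27 was lower in caudal cord at 4 wpi as well (-1.06 ± 0.22, adjusted p = 0.037) but higher in rostral cord at 2 wpi (1.29 ± 0.21, adjusted p = 0.00253), and is 1 of the 2 loci called in both directions. Leaving out 1 library ended the call of the scaffold locus in 9 of 10 fits, of the locus on CHR_ALT_CTG4_2_2 in 4 of 9 and of that on CHR_ALT_CTG23_1_27 in 3 of 9, with adjusted p up to 0.0937. The chromosome 9 locus averaged 1.83 FPKM in uninjured rostral cord and 0.542 FPKM at 2 wpi. In caudal cord the scaffold locus averaged 1.62 FPKM uninjured and 0.591 FPKM at 4 wpi. That on CHR_ALT_CTG4_2_2 averaged 1.88 FPKM uninjured and 0.213 FPKM at 6 wpi. Such loci reached the mean of 1 FPKM partly through uninjured libraries, so their decreases are a description.

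Across pairs, the 2 rows at the same position numbers were not always called together. In rostral cord at 2 wpi, of 271 pairs tested in both rows, 37 alternate loci and 28 Ensembl rows were called, beside 15.1% of all rows tested. The calls had the same direction in 12 pairs and opposite ones in none. In caudal cord at 1 wpi, of 271 pairs, 28 alternate loci and 26 Ensembl rows were called, 11 in the same direction, beside 13.2% of all rows tested. In these 2 comparisons neither row of the pairs was thus called more often than all rows, but this did not hold in every comparison. In rostral cord at 1 wpi, of 271 pairs, 34 alternate loci and 25 Ensembl rows were called, beside 9.82% of all rows tested. The alternate loci were called more often there. A call in one row and not in the other does not show that the 2 rows changed differently, and that difference was not tested.

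Cord at 6 wpi was also compared with cord at 1 wpi. In rostral cord 11 loci were higher and 13 lower at 6 wpi, 1.36% beside 1.61% of all rows (0.537% higher and 1.07% lower), and 85 were called with the replicate block, 4.83% beside 4.22%. In caudal cord 36 were higher and 43 lower, 4.49% beside 4.35% (1.27% higher and 3.08% lower), and 126 were called with the block, 7.16% beside 6.67%. The locus on CHR_ALT_CTG8_1_27 (46213109 to 46217443) had 2, 2.39, 1.64 and 6.11 FPKM in caudal cord at 6 wpi, against 0.432, 0.11, 0.135, 0.147 and 0.174 FPKM at 1 wpi (3.28 ± 0.41, adjusted p = 0.0035). Its rostral change was 2.52 ± 0.42 (adjusted p = 0.0156). In rostral cord the locus on CHR_ALT_CTG6_2_11 was higher (2.11 ± 0.39, adjusted p = 0.026), a call lost in 5 of 10 fits with 1 library left out.

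Of the loci lower at 6 wpi, the 4 named are among the 178 under 1 FPKM in uninjured cord, so their changes are a description. The locus on CHR_ALT_CTG6_2_1 (9146673 to 9153395) had 0.166, 0.207, 0.203, 0.461 and 0.501 FPKM in rostral cord, against 1.93, 2.68, 2.41, 2.18 and 2.63 FPKM at 1 wpi (-2.67 ± 0.28). The locus on CHR_ALT_CTG2_1_2 had a change of -2.60 ± 0.54 and its pair si:ch211-284o19.8 by -2.36 ± 0.51 (adjusted p = 0.0452). In caudal cord the locus on CHR_ALT_CTG15_1_1, which overlaps RBP2, a cellular retinol-binding protein, by 0.595, had a change of -3.17 ± 0.75, and RBP2 changed by -2.44 ± 0.43 (adjusted p = 0.0139). On chromosome 1 a locus 12420 bp from OSBP, an oxysterol-binding protein gene, had a change of -2.89 ± 0.59. Leaving out 1 library ended the call of the locus on CHR_ALT_CTG2_1_2 in 9 of 10 fits, that of the RBP2 locus in 6 of 9 and that of the chromosome 1 locus in 5 of 9.

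Between uninjured caudal and rostral cord none of the 1756 loci tested was called, beside 0.0213% of all rows, with limma. At an unadjusted p under 0.05 there were 9, 0.513% beside 1.18% of all rows, and voom on the recovered fragments called 0 as well. The highest locus, on CHR_ALT_CTG7_2_2, had 72.5, 134, 183, 196 and 292 FPKM in caudal and 60.9, 77.1, 185, 202 and 269 FPKM in rostral libraries, given in the order of replicate numbers. Its 2 regions overlapped over almost the whole range.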

How the data were processed

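The authors deposited a table of FPKM per row and library, with position, strand and length of each row. The submitters' processing notes name HISAT2 2.0.5, featureCounts 1.5.0-p3 and danRer11. How the unannotated rows were assembled, and how reads aligning to several places were counted, is not given in the sources used here. FPKM times length gave whole fragments (within 0.05) in 100% of values. The members, lists and tests were chosen with earlier results of these data known. Rows with a mean of at least 0.1 FPKM were tested on log2(FPKM + 0.1) with limma 3.58.1 in R 4.3.3 (trend, two-sided, Benjamini-Hochberg over all rows, threshold 0.05). The fit was tested on simulated data. Alternatives were pseudocounts of 1 and 0.01, no filter, a mean of at least 1, quantile normalization, voom on fragments, all groups in one fit, a replicate block, replicates 1 to 3 or 4 and 5 only, and leaving out each library. Deviations of same-numbered libraries had correlations over 0.1 in every pair for rostral 4 and 6 wpi against uninjured, both comparisons of 6 with 1 wpi, and uninjured caudal against rostral cord, but the labels do not say what a number marks. Named loci were the 8 with the highest mean, in each comparison the 2 largest increases and decreases among called loci whose groups did not overlap, and the 5 called in the same direction in the most comparisons. Pairs of rows, and loci with a gap, were named after their values were seen. One locus that this rule names is not reported here. Symbols were found for 29178 of 31901 Ensembl rows. A symbol need not belong to a single row, and MICU3 was the symbol in more than 1 pair. The symbol alone therefore does not settle which zebrafish gene a row stands for. Marker genes not found by symbol were not used.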

Additional observations from a re-analysis of the deposited data

Results flagged for a closer look

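A library stood apart from the others of its group in 5 of 114 sets of 4 or 5 libraries examined, by the size of its gap relative to the range of the group, and chance gives about 1 in 20. The share of fragments on scaffold loci was 0.051% in rostral 2 wpi replicate 2, above 0.04% to 0.042% in the other 4. In rostral 2 wpi replicate 4 the locus on CHR_ALT_CTG10_2_2, where PPP3CC lies, had 1.254 FPKM, above 0.137 to 0.181 FPKM. In uninjured rostral replicate 2 the locus on CHR_ALT_CTG6_1_39 had 0.02352 FPKM, below 0.83 to 1.62 FPKM. In caudal 1 wpi replicate 1 the locus on CHR_ALT_CTG8_1_27 had 0.4317 FPKM, above 0.11 to 0.174 FPKM. In caudal 6 wpi replicate 2 the locus on CHR_ALT_CTG15_1_1, where RBP2 lies, was at 0 FPKM, below 0.891 to 1.2 FPKM.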

How the results depend on the processing

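The numbers of called loci depended on the libraries used and on how their spread was estimated. Apart from the replicate block shares given above, calls of all rows under other settings or with 1 library left out are not given here. The shifts below therefore describe the loci and do not set them apart from other rows. With all groups in one fit, 334 loci were called in rostral cord at 1 wpi (198 in the main analysis), 186 at 4 wpi (112), 163 at 6 wpi (87) and 76 for 6 against 1 wpi (24). In caudal cord the same fit called 207 at 2 wpi (131), 71 at 4 wpi (27), 57 at 6 wpi (9) and 167 for 6 against 1 wpi (79). With the replicate block, 188 were called in rostral cord at 4 wpi, 170 at 6 wpi and 85 for 6 against 1 wpi, and in caudal cord 382 at 1 wpi (254) and 126 for 6 against 1 wpi. The block moved the remaining counts by less than 1.5 times, and same-numbered libraries of different weeks are different fish. Replicates 1 to 3 alone gave 60, 119, 60, 5 and 2 in rostral cord at 1, 2, 4 and 6 wpi and 6 against 1 wpi, and 44, 48, 3 and 12 in caudal cord at 1, 2 and 4 wpi and 6 against 1 wpi. Replicates 4 and 5 alone gave 32, 3 and 0 in rostral cord at 2 and 4 wpi and 6 against 1 wpi, and 112, 0 and 0 in caudal cord at 1, 2 and 4 wpi. These sets have fewer samples. No such fit was possible with caudal 6 wpi, where 1 library is left. Without a filter 12 were called in caudal cord at 4 wpi and 5 at 6 wpi, where voom called 14. Quantile normalization called 17 higher of 23 in caudal cord at 4 wpi (73.9%), against 85.2% in the main analysis.

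Leaving out 1 library gave 120 to 182 in rostral cord at 1 wpi, lowest without uninjured replicate 3 and 126 without 1 wpi replicate 5. At 2 wpi it gave 181 to 317 (198 without 2 wpi replicate 1, 181 without 3 or 5), at 4 wpi 74 to 146 (lowest without 4 wpi replicate 3). At 6 wpi it gave 34 to 96 (55 and 43 without uninjured replicates 1 and 3, 57, 52, 41 and 34 without 6 wpi replicates 2 to 5). In caudal cord it gave 159 to 289 at 1 wpi (lowest without 1 wpi replicate 4) and 66 to 186 at 2 wpi (85, 81, 84 and 80 without uninjured replicates 1 to 4, 75 and 66 without 2 wpi replicates 2 and 4). At 4 wpi it gave 7 to 57 (12, 12, 11, 10 and 57 without uninjured replicates 1 to 5, 9, 11, 9 and 7 without 4 wpi replicates 2 to 5), and at 6 wpi 2 to 21 (5, 5, 3 and 21 without uninjured replicates 2 to 5, 2, 5 and 3 without 6 wpi replicates 1 to 3). For 6 against 1 wpi it gave 9 to 23 in rostral cord (12, 14, 11 and 14 without 1 wpi replicates 1, 3, 4 and 5, 14, 9 and 9 without 6 wpi replicates 2 to 4). In caudal cord it gave 21 to 109 (45, 35 and 35 without 1 wpi replicates 3 to 5, 26, 45 and 21 without 6 wpi replicates 1 to 3). The uninjured comparison stayed at 0 in every setting.

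Of 75 named values, none reversed. Among 723 other alternatives 621 kept direction and side of the threshold, 1 newly passed it and the rest no longer did. Of 737 with 1 library left out, 642 kept both and 95 were no longer past the threshold. The cause was not tested.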
